A study of Mus musculus with 2 samples.

Results

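The genes described here are 53 DNA methylation and chromatin regulators in the kidney of the mouse embryo. They were a list of symbols mapped by Ensembl stable identifier to the gene and transcript tables, and all 53 of 43346 mouse genes in the tables were found. The list holds 13 genes of DNA methylation, 11 Polycomb genes, 7 Trithorax genes with the H3K27 demethylases, 9 histone deacetylases and 7 chromatin remodellers. Setd2 and Dot1l, which methylate H3K36 and H3K79, the acetyltransferases Ep300 and Crebbp, and the insulator pair Ctcf and Ctcfl complete it. The samples form 1 group, E16.5 kidney (embryos of B6NCrl mice, age 16.5 days), with no other age, tissue, genotype or treatment. There were 2 libraries of total RNA, biological replicates 1 and 2, each from a pool of embryos of mixed sex. The pool of replicate 2 held 41 embryos, and for replicate 1 the sources used here give no number. The comparisons are therefore between genes, gene groups and transcripts within this tissue, and between the pools.

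DNA methylation is set at CpG dinucleotides by the Dnmt3 enzymes, copied at replication by Dnmt1 with its partner Uhrf1, and removed stepwise through oxidation by the Tet enzymes and excision by Tdg. Polycomb complexes keep developmental genes silent through H3K27 methylation and H2A ubiquitination, and Trithorax-group methyltransferases of the Kmt2 family oppose them with H3K4 methylation. Deacetylases remove and acetyltransferases add histone acetylation, and remodellers use ATP to move or evict nucleosomes. In the developing kidney these factors act while nephron progenitors are being maintained and differentiate.

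Levels are in TPM, the deposited transcript level scaled to transcript length and library, and are given as replicate 1 then replicate 2 or as mean ± SD (n = 2). A gene was counted as detected at 1 TPM or more in both libraries. Of the 53 members, 51 were detected, against 62.2% of 21474 protein-coding genes and 34.7% of all mouse genes. The exceptions were Dnmt3l and Ctcfl. The detected members held between 220.0 and 10864 expected counts in replicate 1 and between 229 and 11826 in replicate 2, out of 34261328 and 37900132 counts on mouse genes. Their levels spread from 2.29 ± 0.247 TPM for Hdac9 to 246 ± 14.2 TPM for Hdac1. In such bulk RNA, more cells of a type and more RNA per cell cannot be told apart.

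**Figure D1:**
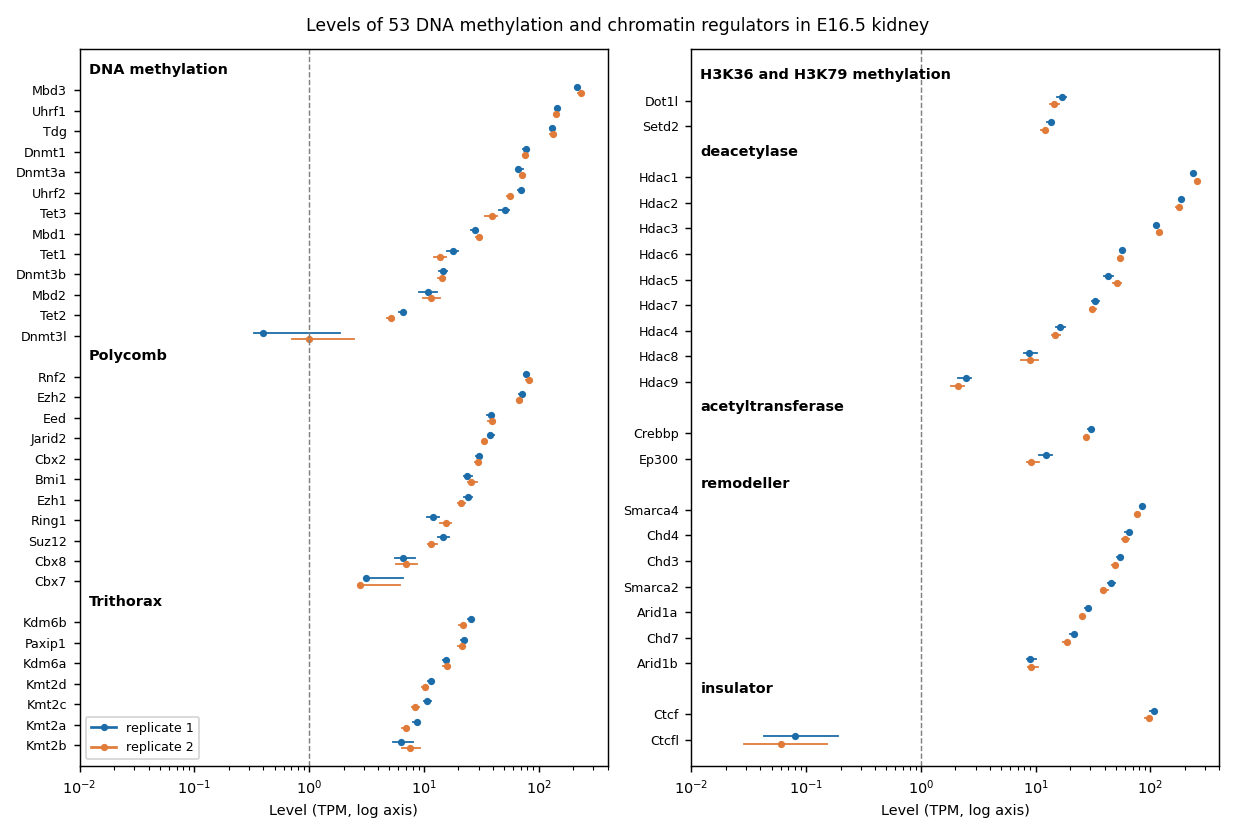
Level of each member in TPM (log axis) by group, highest first within a group, with points for replicate 1 (blue) and replicate 2 (orange), lines for the deposited lower and upper bounds and a dashed line at 1 TPM. Dnmt3l and Ctcfl are the 2 members at or left of the line, and Hdac1 (236 and 256 TPM) and Mbd3 (219 and 233 TPM) stand highest.

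Among the DNA methyltransferases, Dnmt1 and Dnmt3a stood at similar levels and Dnmt3b well below both. Dnmt1, the maintenance enzyme, had 77.3 TPM in replicate 1 and 77 TPM in replicate 2. Dnmt3a, a de novo enzyme, had 66.3 TPM in replicate 1 and 72.2 TPM in replicate 2. The log2 ratio of Dnmt1 over Dnmt3a was 0.16 ± 0.09 and did not exceed the spread as defined here. A pair was said to differ beyond the spread where the log2 ratio of TPM + 0.1 had 1 sign in both libraries, exceeded the gap between them, and the deposited bounds of the genes did not overlap in either library. Dnmt3b, the other de novo enzyme, had 14.8 TPM in replicate 1 and 14.5 TPM in replicate 2, and Dnmt3a was 4.47-fold and 4.96-fold higher, beyond the spread. Dnmt3a also held 42.8% ± 1.47 of the TPM of the family and Dnmt3b 9.09% ± 0.364.

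Dnmt3l, the catalytically inactive cofactor of de novo methylation in germ cells, was the lowest of the DNA methylation genes. It had 0.40 TPM in replicate 1 and 1 TPM in replicate 2, from 7 and 19 counts, with deposited bounds of 0.329 to 1.87 TPM and 0.717 to 2.46 TPM. Ctcfl, the testis paralog of Ctcf, had 0.080 TPM in replicate 1 and 0.060 TPM in replicate 2 from 6 and 5 counts. Germ-cell markers were low in the same libraries. Of 9 such genes only Dnd1 (1.67 and 1.8 TPM) and Nanos3 (1.52 and 1.46 TPM) were detected, while the germ-cell helicase Ddx4 had 0.59 and 0.41 TPM, Dazl 0.080 and 0.10 TPM and Nanos2 0 and 0.060 TPM. The list of germ-cell genes summed to 4.35 and 4.49 TPM. Of 6 gonadal somatic genes, Foxl2 and Dmrt1 had no counts, Sox9, which kidney cells also express, had 26.1 and 23.5 TPM, Cyp17a1 0.030 and 5.99 TPM, Insl3 1.08 and 6.46 TPM and Amh 0.030 and 0.59 TPM. Cyp17a1, Insl3 and Amh thus were higher in replicate 2, as Dnmt3l was, while Sox9 and Ctcfl were not. Of the germ-cell genes, Nanos3, Ddx4 and Sycp3 (0.38 and 0.080 TPM) were lower in replicate 2. Dnd1, Dazl, Nanos2, Mael (0.060 and 0.35 TPM), Pou5f1 (0.050 and 0.16 TPM) and Dppa3 (0 and 0.070 TPM) were higher there in TPM. These directions are uncertain, since Dazl had 5 and 7 counts, Nanos2 0 and 2 and Dppa3 0 and 1. For Dnd1, with 64 and 67 counts, the log2 ratio of scaled counts was 0.05, slightly higher in replicate 1. The part of such cells in the Dnmt3l and Ctcfl values was not tested. Dnmt3l also shares 67 exon bases with Aire, a gene on the opposite strand that had 71 and 62 counts.

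Several of these genes are read from more than one start, and the sequence before each start differed in CpG content, the substrate of the enzymes themselves. Transcripts were assigned to a start of the RefSeq promoter table (GRCm38.p6) within 100 nt of their own 5′ end, and 43 of the 53 members had an entry. Printed are the 250 bases before each start that carried at least 25% of the gene's TPM in both libraries for Dnmt3a, Dnmt1 and Uhrf1, and for comparison the Dnmt3l start with the highest TPM. Every sequence is on the strand of its gene, with CpG dinucleotides in capitals.

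The pair of Dnmt3a starts (plus strand, chr12:3806730-3806979 and chr12:3891494-3891743) had 38 CpG dinucleotides in the upstream window and 15 in the downstream one, an observed over expected CpG ratio of 0.94 and 0.46.
Dnmt3a upstream start: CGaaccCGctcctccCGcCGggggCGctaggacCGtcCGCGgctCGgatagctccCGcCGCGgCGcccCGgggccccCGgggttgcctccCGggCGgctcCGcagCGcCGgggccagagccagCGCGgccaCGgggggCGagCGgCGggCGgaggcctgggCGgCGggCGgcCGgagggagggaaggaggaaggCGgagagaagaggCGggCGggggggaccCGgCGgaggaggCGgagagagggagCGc
Dnmt3a downstream start: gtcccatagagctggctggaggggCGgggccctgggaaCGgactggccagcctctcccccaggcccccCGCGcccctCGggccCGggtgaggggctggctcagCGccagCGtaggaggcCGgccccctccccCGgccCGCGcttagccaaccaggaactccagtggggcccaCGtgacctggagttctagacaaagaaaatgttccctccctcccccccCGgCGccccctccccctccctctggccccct
The printed Dnmt1 starts (minus strand, chr9:20959889-20960138 and chr9:20952980-20953229) were poor in CpG, with 2 in the upstream and 7 in the downstream window and ratios of 0.13 and 0.38. A further listed start, that of Dnmt1-203 (chr9:20952574-20952873), lies downstream of both and was rich in CpG, with 33 and a ratio of 0.91. That count is over the longer window of the promoter table, in which the printed starts had 2 and 12. Dnmt1-203 held 1.27% and 1.47% of the gene's TPM, too little for its start to be printed.
Dnmt1 upstream start: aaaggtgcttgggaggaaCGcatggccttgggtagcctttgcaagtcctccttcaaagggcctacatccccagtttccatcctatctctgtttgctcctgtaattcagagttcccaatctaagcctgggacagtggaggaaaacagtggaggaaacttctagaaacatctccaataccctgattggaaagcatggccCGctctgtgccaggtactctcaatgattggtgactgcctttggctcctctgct
Dnmt1 downstream start: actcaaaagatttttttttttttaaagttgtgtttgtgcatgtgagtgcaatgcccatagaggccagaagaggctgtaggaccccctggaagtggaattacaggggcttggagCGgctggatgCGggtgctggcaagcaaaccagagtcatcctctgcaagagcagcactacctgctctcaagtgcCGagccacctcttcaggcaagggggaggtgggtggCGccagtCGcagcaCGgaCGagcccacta
The Uhrf1 starts (plus strand, chr17:56303087-56303336 and chr17:56304063-56304312) had 10 and 30 CpG, with ratios of 0.45 and 1.00.
Uhrf1 upstream start: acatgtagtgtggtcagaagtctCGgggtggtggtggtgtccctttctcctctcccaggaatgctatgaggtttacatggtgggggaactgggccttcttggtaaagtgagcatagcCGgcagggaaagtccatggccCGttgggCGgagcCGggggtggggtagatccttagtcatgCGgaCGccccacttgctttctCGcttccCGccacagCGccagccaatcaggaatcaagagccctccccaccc
Uhrf1 downstream start: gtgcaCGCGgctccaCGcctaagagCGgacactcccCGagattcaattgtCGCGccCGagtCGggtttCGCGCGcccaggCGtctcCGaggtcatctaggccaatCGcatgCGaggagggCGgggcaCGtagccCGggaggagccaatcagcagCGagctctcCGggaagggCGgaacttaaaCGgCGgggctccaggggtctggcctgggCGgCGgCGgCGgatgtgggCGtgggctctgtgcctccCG
The Dnmt3l start (plus strand, chr10:78055085-78055334) had 3 CpG and a ratio of 0.13.
Dnmt3l start: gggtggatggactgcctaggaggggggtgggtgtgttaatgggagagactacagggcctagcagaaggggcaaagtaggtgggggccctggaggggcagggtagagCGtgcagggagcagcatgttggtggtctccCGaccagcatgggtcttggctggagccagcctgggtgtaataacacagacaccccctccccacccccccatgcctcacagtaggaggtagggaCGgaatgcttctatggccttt

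Both Dnmt3a starts were in use by the deposited estimates. Transcripts from the upstream start, which include the long form Dnmt3a-201, summed to 27.5 and 28.3 TPM, or 41.4% and 39.2% of the gene. Transcripts from the downstream start, which is known to give the shorter enzyme Dnmt3a2 that lacks the amino-terminal region, summed to 24.9 and 29.8 TPM, or 37.5% and 41.2%. The order of these sums was thus opposite in the libraries. Their main transcripts differed in both, with Dnmt3a-201 at 27.5 and 25.2 TPM and Dnmt3a-203 at 19.8 and 21.9 TPM. The deposited bounds of these transcripts did not overlap in either library. The sums leave out Dnmt3a-202 (8.63 and 5.87 TPM), Dnmt3a-206 (0 and 4 TPM) and Dnmt3a-212 (0.15 and 0.11 TPM). These begin before the upstream start, too far from it to be assigned. Counted there, they would put the upstream start higher in both libraries. Dnmt3a-201 and Dnmt3a-203, the main transcript of each start, begin 84714 nt apart, and 4378 exon bases were found in Dnmt3a-201 alone and 117 in Dnmt3a-203 alone. Dnmt3a-201 held 65.4% and 60.6% of the counts of the gene, more than its share of TPM, a measure that divides by length.

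At Dnmt1 the downstream one of the printed starts led in both libraries. Its transcript Dnmt1-201 stood at 52 and 45.9 TPM and Dnmt1-202, from the start 6909 nt upstream, at 24.3 and 30 TPM, and their deposited bounds did not overlap in either library. The share of Dnmt1-202 was 31.4% and 38.9%. The difference between these transcripts rests on 275 exon bases found in Dnmt1-201 alone and 156 in Dnmt1-202 alone, in M21 models slightly shorter than the deposited ones. At Uhrf1 the CpG-rich downstream start led with 87.9 and 79.1 TPM, or 60.1% and 55.5% of the gene, against 51.1 and 57.8 TPM from the upstream start. Uhrf1-204 and Uhrf1-201, 1 from each start, have 46 and 241 exon bases that the other lacks. At Dnmt1 and Uhrf1 the TPM of the upstream printed start was higher in replicate 2 than in replicate 1, and that of the downstream printed start lower. At Dnmt3a both starts were higher in replicate 2. There Dnmt3a-201 was lower, at 27.5 and 25.2 TPM, and Dnmt3a-204 of the same start had 0 and 3.13 TPM.

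**Figure D2:**
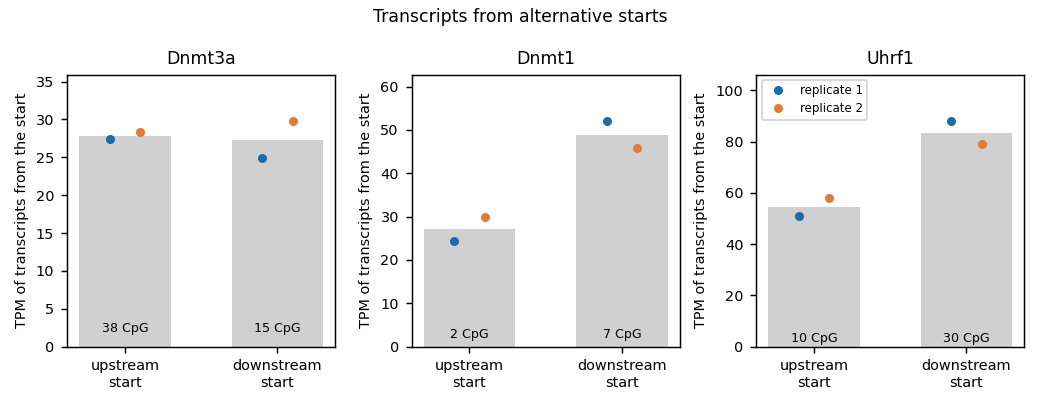
TPM of the transcripts that begin at each start of Dnmt3a, Dnmt1 and Uhrf1, as the mean of 2 libraries (bars) with replicate 1 (blue) and replicate 2 (orange), and the CpG count of the 250 bases before the start. The Dnmt3a bars are nearly level, whereas the downstream bars of Dnmt1 and Uhrf1 are higher in both libraries.

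Across the members, promoters were mostly rich in CpG. Taking the first listed start of each gene and the 300 bases of the table, 37 of 43 had a GC content of at least 50% and an observed over expected CpG ratio of at least 0.6, against 34.1% of 27025 genes of the table and 67.5% of 10422 detected protein-coding genes. The median ratio was 0.84 for members and 0.39 for all genes of the table. Dnmt1, Dnmt3l, Hdac8, Hdac9, Tet3 and Uhrf1 were the 6 members whose first listed start missed this rule. Another listed start met it in Dnmt1 (that of Dnmt1-203, ratio 0.91) and in Uhrf1 (the downstream start, ratio 0.96).

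The partners of Dnmt1 and the genes of the methyl-CpG-binding domain family covered a wide range. Uhrf1, which recruits Dnmt1 to hemimethylated sites, had 146 TPM in replicate 1 and 143 TPM in replicate 2. Its paralog Uhrf2 had 69.9 TPM in replicate 1 and 56.1 TPM in replicate 2, and Uhrf1 was higher by 1.20 ± 0.20 on the log2 scale. Over protein-coding transcripts alone that log2 ratio was 2.30 ± 0.09. Among the 3 members of that family, Mbd3, a subunit of the NuRD complex, stood highest with 219 TPM in replicate 1 and 233 TPM in replicate 2. Mbd2, the other NuRD variant, which binds methylated DNA, had 10.9 TPM in replicate 1 and 11.7 TPM in replicate 2, so that Mbd3 was 20-fold and 19.9-fold higher. Mbd1 lay between them with 28 TPM in replicate 1 and 30.6 TPM in replicate 2.

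Tet3 led the enzymes that oxidise methylcytosine. It had 51.3 TPM in replicate 1 and 39.7 TPM in replicate 2, Tet1 had 17.9 and 13.7 TPM and Tet2 6.6 and 5.19 TPM. All 3 had more TPM in replicate 1, a direction that reverses when counts are scaled to the spike-ins, and the order was the same in both libraries. Tet3 held 67.7% ± 0.0642 of the TPM of the family, nearly equal in the libraries, and 66.4% ± 0.56 over protein-coding transcripts. Tet2 lay below Tet1, with a log2 ratio of -1.41 ± 0.03 over all transcripts and -0.32 ± 0.02 over protein-coding ones. With counts divided by the length of the longest protein-coding transcript, an alternative added after the data were seen, the ratio turned to 0.11 ± 0.12, so the order of these genes depends on the length by which the counts are divided. Tdg, the glycosylase that removes oxidised cytosines, had 131 TPM in replicate 1 and 133 TPM in replicate 2.

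The Polycomb genes had a median of 25 ± 1.2 TPM, and all 11 were detected. In Polycomb repressive complex 2 (PRC2), the methyltransferase Ezh2 had 71.5 TPM in replicate 1 and 68.2 TPM in replicate 2. Its paralog Ezh1, known for its use in non-dividing cells, had 24.2 TPM in replicate 1 and 21.1 TPM in replicate 2, and Ezh2 exceeded it by a log2 ratio of 1.62 ± 0.09, beyond the spread. The core subunit Eed had 38.5 TPM in replicate 1 and 39.1 TPM in replicate 2. Suz12, the other core subunit, had only 14.6 TPM in replicate 1 and 11.5 TPM in replicate 2, and its leading transcript was Suz12-206 in replicate 1 and Suz12-201 in replicate 2. Suz12-206 held 37.4% and 40.6% of its TPM and Suz12-201 30.7% and 42.1%. Jarid2, which helps to recruit PRC2, had 37.8 TPM in replicate 1 and 33.2 TPM in replicate 2.

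In Polycomb repressive complex 1 (PRC1), the members include alternative subunits at unequal levels. Of the ubiquitin ligases, Rnf2 had 78.5 TPM in replicate 1 and 83.1 TPM in replicate 2 and Ring1 12 and 15.7 TPM, a log2 ratio of 2.55 ± 0.21. Bmi1, the Pcgf4 subunit, had 23.6 TPM in replicate 1 and 25.9 TPM in replicate 2, below Pcgf1, which is not a member (32.8 and 32.2 TPM). Of the chromodomain subunits that bind H3K27me3, Cbx2 had 30.5 TPM in replicate 1 and 29.8 TPM in replicate 2. Cbx8 had 6.61 and 7.04 TPM and Cbx7 3.15 and 2.76 TPM. Cbx2 held 75.5% ± 0.37 of the TPM of these 3 genes, though Cbx6, which is not a member, stood higher than Cbx2 with 44.6 and 51.2 TPM. The ratios of Cbx2 to both other members lay beyond the spread, whereas that of Cbx8 over Cbx7 did not, since the deposited bounds overlapped. Cbx7 also shares 100 exon bases with Apobec3, a gene on the opposite strand, so its value is uncertain.

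The Trithorax genes were the lowest of the main groups, with a median of 10.9 ± 0.849 TPM over 7 detected members. The 4 H3K4 methyltransferases lay close together. Kmt2d had 11.5 and 10.3 TPM, Kmt2c 10.7 and 8.35 TPM, Kmt2a 8.71 and 7 TPM and Kmt2b 6.39 and 7.54 TPM. Neither Kmt2d over Kmt2c (log2 ratio 0.20 ± 0.13) nor Kmt2a over Kmt2b (0.17 ± 0.39, with opposite signs in the libraries) differed beyond the spread, and over protein-coding transcripts the ratio of Kmt2a over Kmt2b was 1.27 ± 0.20. The H3K27 demethylase Kdm6b had 25.7 TPM in replicate 1 and 21.8 TPM in replicate 2 and its X-linked paralog Kdm6a 15.7 and 15.8 TPM. Kdm6a was lower beyond the spread, with a log2 ratio over Kdm6b of -0.59 ± 0.17. Paxip1, a partner of the Kmt2c and Kmt2d complexes, had 22.3 TPM in replicate 1 and 21.4 TPM in replicate 2. Of the methyltransferases of transcribed genes, Dot1l, for H3K79, had 17 and 14.6 TPM and Setd2, for H3K36, 13.5 and 12 TPM.

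The class I deacetylases Hdac1, Hdac2, Hdac3 and Hdac8 took 78.2% and 78.5% of the TPM of the 9 deacetylases. Hdac1 was the highest of all 53 members with 236 TPM in replicate 1 and 256 TPM in replicate 2. Hdac2, which shares the NuRD, Sin3 and CoREST complexes with it, had 185 TPM in replicate 1 and 176 TPM in replicate 2, with a log2 ratio over Hdac1 of -0.45 ± 0.13. Hdac3, the enzyme of the NCoR and SMRT complexes, had 112 TPM in replicate 1 and 120.1 TPM in replicate 2, and Hdac8, which deacetylates cohesin, only 8.76 and 8.9 TPM. Hdac3 was 12.8-fold and 13.5-fold higher than Hdac8 in levels per length.

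Of the class II enzymes, Hdac6, a largely cytoplasmic tubulin deacetylase, had 57.2 TPM in replicate 1 and 54.8 TPM in replicate 2. The class IIa enzymes, which shuttle between nucleus and cytoplasm, followed in the order Hdac5 (42.5 and 50.7 TPM), Hdac7 (32.8 and 31.2 TPM), Hdac4 (16.2 and 14.9 TPM) and Hdac9 (2.47 and 2.12 TPM). Hdac5, Hdac7 and Hdac9 each differed from Hdac4 beyond the spread. Over protein-coding transcripts the log2 ratio of Hdac5 over Hdac4 was 1.05 ± 0.23, against 1.58 ± 0.27 over all transcripts, and that of Hdac7 over Hdac4 0.45 ± 0.01, against 1.04 ± 0.04.

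Of the related acetyltransferases, Crebbp had 30.3 TPM in replicate 1 and 27.6 TPM in replicate 2 and Ep300 12.3 and 9.03 TPM. Crebbp was higher beyond the spread, with a log2 ratio of 1.45 ± 0.21 over all transcripts and 2.67 ± 0.44 over protein-coding ones.

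In each pair of remodellers the member named first was the higher, and for Smarca4 and Chd4 the margin was wider over protein-coding transcripts. Smarca4, the Brg1 ATPase of BAF complexes, had 85 TPM in replicate 1 and 76.6 TPM in replicate 2, and its alternative Smarca2, known as Brm, had 45.1 and 38.8 TPM. Their log2 ratio was 0.95 ± 0.05 over all transcripts and 2.06 ± 0.03 over protein-coding ones. The BAF subunits Arid1a and Arid1b, which exclude each other from the complex, had 28.7 and 25.6 TPM and 9 and 9.09 TPM, a log2 ratio of 1.57 ± 0.13 over all transcripts and 1.68 ± 0.02 over protein-coding ones. Chd4, an ATPase of NuRD, had 65.3 TPM in replicate 1 and 59.9 TPM in replicate 2 and its paralog Chd3 54.9 and 49.1 TPM. Here the log2 ratio was 0.27 ± 0.02 over all transcripts and 1.58 ± 0.12 over protein-coding ones. Chd7, the remodeller mutated in CHARGE syndrome, had 21.5 TPM in replicate 1 and 18.7 TPM in replicate 2. Of this, 53.8% and 51.6% was on Chd7-203, a protein-coding transcript of only 2381 nt. Chd7-202, of 10216 nt, held 3.05 and 2.75 TPM but 38.5% and 38.8% of the counts.

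Ctcf, which holds chromatin loops together with cohesin, had 109 TPM in replicate 1 and 97.3 TPM in replicate 2. Only 36 and 35.9 TPM of this was on Ctcf-201, its protein-coding transcript, and the rest on shorter transcripts.

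Of the 28 paralog pairs compared, 24 differed beyond the spread. The exceptions were Dnmt1 with Dnmt3a, Cbx8 with Cbx7, Kmt2a with Kmt2b and Kmt2d with Kmt2c. Over protein-coding transcripts the mean ratio of no pair changed sign, and 1 pair, Tet2 with Tet1, did so with counts over the longest protein-coding transcript. The spread here is that of 2 pools and of the deposited bounds, with no test.

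**Figure D3:**
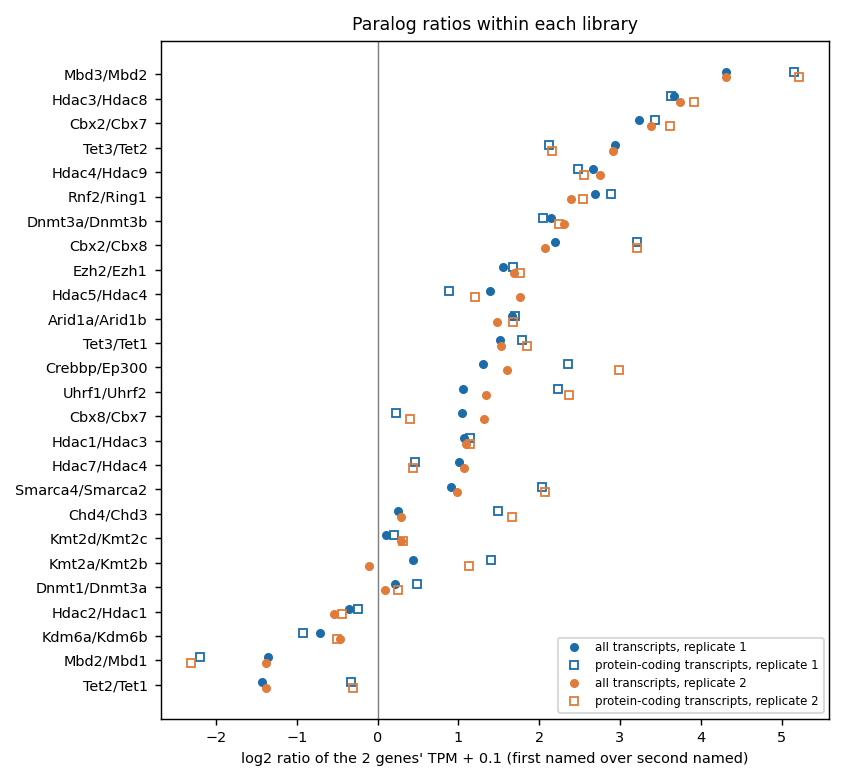
Log2 ratio of TPM + 0.1 of the first named over the second named gene for 26 of the 28 pairs (those with Ctcfl and Dnmt3l are left out), in replicate 1 (blue) and replicate 2 (orange), over all transcripts (filled circles) and over protein-coding transcripts (open squares). Ratios of Chd4 over Chd3, Smarca4 over Smarca2, Uhrf1 over Uhrf2 and Kmt2a over Kmt2b lie farther from 0 for protein-coding transcripts, and that of Tet2 over Tet1 lies nearer to 0.

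Set side by side, the groups ranked differently by the measure used. All members had a median of 25.6 ± 0.0495 TPM, against 5.45 ± 0.0212 TPM over all 21474 protein-coding genes and 20.7 ± 0.0106 over the 13352 detected ones. The median was 46.6 ± 5.8 TPM for deacetylases, 45.5 ± 8.22 for DNA methylation genes, 42 ± 4.48 for remodellers, 25 ± 1.2 for Polycomb and 10.9 ± 0.849 for Trithorax genes. The first 3 medians lay within the spread between the libraries of each other: deacetylases led in replicate 2, with 50.7 TPM, and DNA methylation genes in replicate 1, with 51.3 TPM. Over protein-coding transcripts the medians were 28.2 ± 2.6 TPM for deacetylases, 27.8 ± 1.82 for DNA methylation genes, 23.1 ± 0.70 for Polycomb, 19.7 ± 2.12 for remodellers and 10.9 ± 0.841 for Trithorax genes, so that remodellers then stood below Polycomb in both libraries. Detected protein-coding genes had 17.2 ± 0.244 TPM on that measure. On the scale of mean log2(TPM + 0.1), the groups lay above all protein-coding genes by 3.47 and 3.44 for deacetylases, 3.41 and 3.25 for remodellers, 3.18 and 3.17 for DNA methylation, 2.69 and 2.65 for Polycomb and 1.94 and 1.80 for Trithorax genes. Trithorax genes were lowest on all measures and in both libraries, and their median effective length of 6176 nt was the longest of the 5 groups.

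Much of the level of several members lay on transcripts not annotated as protein-coding. The tables hold 356 transcripts of the members, of which 198 are annotated as protein-coding in GENCODE M21. That class also holds short transcripts, such as Chd7-203 (2381 nt) and Chd3-207 (430 nt), so its share is not that of full-length transcripts. Among the 46 detected members with 2 or more transcripts, protein-coding transcripts held a median of 89.1% and 89.4% of TPM, against 92% and 93.2% over 9743 protein-coding genes of that kind. In 7 members they held less than 50% of TPM in both libraries, against 9.42% of those genes. In 8 members the leading transcript was not protein-coding in both libraries, against 7.85%. In counts the medians were 96.1% and 97.2%, against 96.7% and 97.3% over those genes. TPM divides by length, and the leading transcripts of the 8 members were short, from 528 to 2523 nt.

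Ctcf had a protein-coding share of 33.1% in replicate 1 and 36.9% in replicate 2, the lowest of the members in replicate 1, whereas in replicate 2 Chd3 (36.3%) was lower and Ep300 (36.9%) level with it. Ctcf-202, a processed transcript of 528 nt, held 62% and 57.6% of the TPM of the gene but 17.3% and 14.8% of its counts. It shares 498 of its bases with Ctcf-201, the protein-coding transcript of 3782 nt, so that 30 bases set it apart. The opposite-strand gene Gm5914 also shares 370 exon bases with Ctcf, and the sources used here do not give strandedness.

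The other members led by such a transcript were Tet1, Tet3, Cbx8, Kmt2b, Hdac7, Smarca2 and Chd3. Tet1-202, a processed transcript of 1505 nt, held 51.4% and 53.1% of TPM and 15.8% and 14.1% of counts, while Tet1-206, of 14369 nt, held 79.8% and 82.4% of counts. Tet3-201, a processed transcript of 2523 nt that starts 3 nt from the full-length Tet3-202, held 43.4% and 41% of TPM. Smarca2-215 is annotated as a target of nonsense-mediated decay in M21, whose model has 2018 exon bases against 1460 nt in the deposited one. It held 42.9% and 44.7% of TPM. These shares were alike in both libraries.

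Retained-intron transcripts led 3 of the others. Kmt2b-207 held 42.9% and 53.4% of TPM from 29.7 and 47.4 counts, Hdac7-211 held 36.7% and 42.2% and Chd3-203 26.8% and 29.2%. In Cbx8, the leading Cbx8-202, a processed transcript, held 52.1% and 47.5%. In Uhrf2 the protein-coding share was 42.2% in replicate 1 and 47.2% in replicate 2, with retained-intron transcripts making up most of the remainder, and in Ep300 it was 45.7% in replicate 1 and 36.9% in replicate 2. Among the detected members with 2 or more transcripts, Dnmt1, Kmt2a, Kmt2d and Smarca4 stood at the other end, with 100% of TPM on protein-coding transcripts in both libraries.

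**Figure D4:**
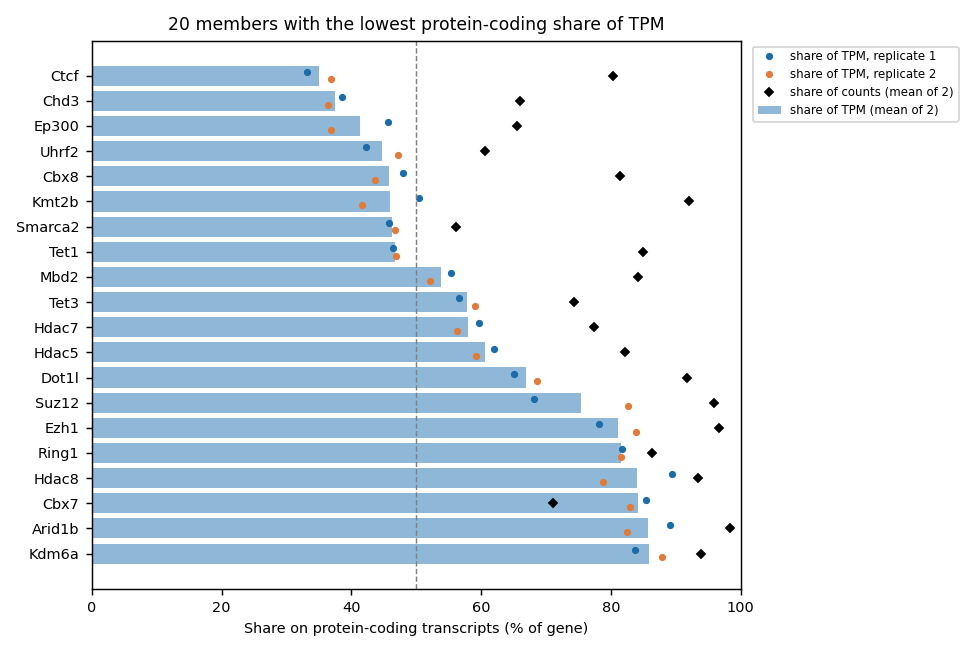
Share of each gene on protein-coding transcripts, as a percent of TPM (bars, mean of 2 libraries, with replicate 1 in blue and replicate 2 in orange) and of expected counts (black diamonds), for the 20 detected members with the lowest share of TPM. For Ctcf, Kmt2b, Cbx8 and Tet1 the diamond lies far to the right of the bar, and for Smarca2 it lies close to it.

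In other members the leading transcript was protein-coding but held less than the rest together. The leading transcript had under 50% of TPM in both libraries in Dnmt3a (Dnmt3a-201, 41.4% and 34.9%), Uhrf2 (Uhrf2-201, 42.2% and 47.2%), Mbd3 (Mbd3-204, 42.7% and 43.3%), Ep300 (Ep300-201, 32.8% and 36.9%), Chd4 (Chd4-202, 42.5% and 49.1%), Hdac5 and Suz12. This also held for Dnmt3b, where it was Dnmt3b-206 (37.4% and 30.6%) in replicate 1 and Dnmt3b-207 (24.3% and 35.6%) in replicate 2. It led with under 50% in replicate 1 alone in Cbx7 (Cbx7-203, 47% and 56.4%) and Kmt2c (Kmt2c-208, 43.8% and 51%). Among the 46 detected members with several transcripts, the leader differed between the libraries in 2, Dnmt3b and Suz12, against 8.31% of the 9743 genes. The deposited bounds of the competing transcripts overlapped in both: Dnmt3b-206 ran from 2.7 to 6.71 TPM and Dnmt3b-207 from 1.83 to 4.51 TPM in replicate 1. In Dnmt3l, below the threshold of detection, Dnmt3l-203 (64.7% and 37%) led in replicate 1 and in replicate 2 Dnmt3l-207 (35.3% and 46.1%), a retained-intron transcript. In Hdac5, which has 20 transcripts, the leader Hdac5-202 held 28.5% and 25.5%.

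With counts scaled by the trimmed mean of M-values (TMM), the pools differed little in these genes. No member then passed 2-fold or 1.5-fold among the 51 with a mean of at least 1 CPM (counts scaled to library size), against 2.32% and 5.81% of 15362 genes. The log2 ratio of replicate 1 over replicate 2 ran from -0.33 for Ring1, with 515 and 703 counts, to 0.35 for Tet2, with 1376 and 1175 counts. Its median size was 0.09 over members and 0.11 over all genes, and it was also 0.09 over the 11861 genes at least as high in CPM as the lowest member. With 1 group of 2 pools there is no test of these ratios. Without the filter Dnmt3l passed 2-fold, at -1.12 from 7 and 19 counts. Scaled to the spike-ins instead, Ring1 stood at -0.75, past 1.5-fold.

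The direction of these small differences was uneven. Under TMM, 37 of 51 members were higher in replicate 1, against 47.5% of all genes, and the median log2 ratio was 0.07 for members and -0.01 for all genes. Scaled to the spike-ins, the median of all genes moved to -0.43 and that of the members to -0.36, and none of the 51 was then higher in replicate 1. Transcript length moved with the ratio over all genes. Of 771 genes with an effective length of at least 6 kb, 72.4% were higher in replicate 1 (median 0.09), and so were 10 of 10 members of that length (median 0.19). Of 4294 genes of 1 to 2 kb, 36.9% were higher in replicate 1 (median -0.05), and 4 of 10 members (median -0.06). The members have a median effective length of 3409 nt, against 2385 nt over detected protein-coding genes. The part of length in the members' ratios was not tested.

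By the deposited bounds, which cover counting and assignment of reads only, 17 of the 51 detected members had higher TPM in replicate 1 with no overlap, against 7.91% of 13352 detected protein-coding genes. They included all 3 Tet genes, Kmt2a, Kmt2c, Setd2, Ep300 and Crebbp. Another 5 lay lower in replicate 1 with no overlap, Hdac1, Hdac3, Hdac5, Mbd3 and Ring1, against 13.3%. Neither background share was matched to the members in counts or length, on which the width of the bounds can depend. These 5 have effective lengths of 1263 to 2327 nt, and the 17 of 1905 nt (Hdac2) to 11673 nt (Kmt2a). Only Hdac2 and Smarca2 (2178 nt) of the 17 were shorter than Hdac5, the longest of the 5, and the rest were longer. The part of length in these differences was not tested.

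**Figure D5:**
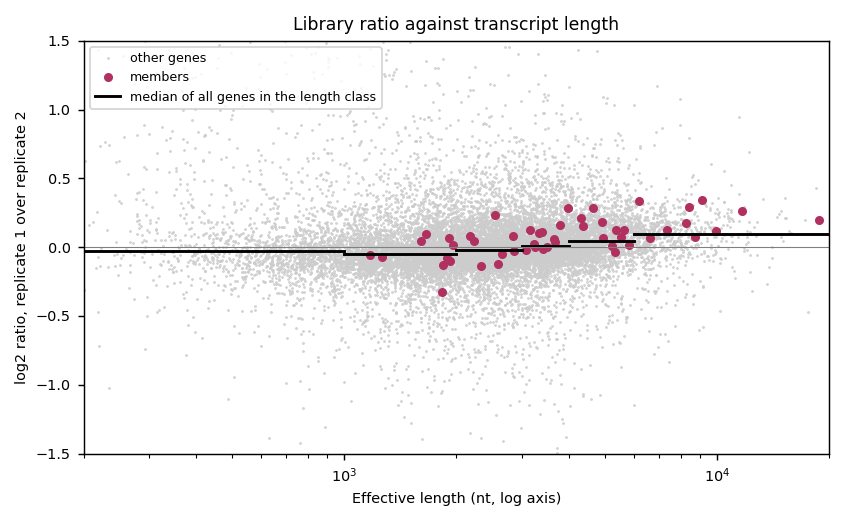
Log2 ratio of TMM-scaled counts, replicate 1 over replicate 2, against effective length (log axis) for 51 members (red) and other genes (grey), with the median of all genes in each of 6 length classes (black lines). Members beyond 6 kb all lie above 0 under this scaling, though none does when scaled to spike-ins, and 207 of the other genes fall outside the plotted range.

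Further genes of the same pathways, on lists chosen with earlier results of these data known, were nearly all present. Of 132 matched genes, 128 were detected, in the background of 62.2% given above. Those that were not included Dppa3 (0 and 0.070 TPM), a protein of oocytes and germ cells that protects methylation, and the neural remodeller subunits Actl6b (0.81 and 0.32 TPM) and Chd5 (0.28 and 0.10 TPM).

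The other DNA methylation genes were led by Trim28 (203 and 207 TPM) and Zfp57 (54.7 and 54.2 TPM), which together hold methylation at imprinted loci, and 15 of 17 were detected. Only 29.3% and 36.8% of the Trim28 level was on protein-coding transcripts. Among 7 further PRC2 subunits, all detected, the histone chaperones Rbbp7 (466 and 499 TPM) and Rbbp4 (330.4 and 320.4 TPM) stood far above Epop (2.03 and 1.94 TPM). For Rbbp4 too, only 34.4% and 35.4% was on protein-coding transcripts. All 16 further PRC1 subunits were detected, from Kdm2b (81.3 and 80.6 TPM), which binds unmethylated CpG, and Yaf2 (50.4 and 72 TPM) to Phc3 (5.54 and 4.23 TPM). Both complexes thus spanned wide ranges between subunits.

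All 14 further COMPASS and Trithorax genes were detected, and their median of 43.8 ± 2.11 TPM exceeded that of the 7 members. The shared COMPASS subunit Dpy30 (146 and 146 TPM) and Psip1 (105 and 91.8 TPM), which tethers Kmt2a, were highest and the methyltransferase Setd1b (6.42 and 4.96 TPM) lowest. Deacetylase corepressors and sirtuins, 16 of 16 detected, ran from Sin3b (129.6 and 149.6 TPM) and Ncor1 (52.1 and 85.5 TPM) to Sirt1 (4.42 and 3.43 TPM). Ncor1 had the lower value in replicate 1, with a log2 ratio of counts of -0.54. All 7 further acetyltransferases were detected, from Kat7 (75.8 and 71.5 TPM) and Kat2a (52.1 and 52.4 TPM) to Kat2b (3.18 and 3.26 TPM).

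Of 36 further remodeller subunits 34 were detected, led by the BAF core subunits Smarce1 (227 and 217 TPM) and Smarcb1 (195 and 209.7 TPM). All 10 cohesin and loading genes were detected, from the ring subunits Smc1a (100.1 and 91.2 TPM) and Smc3 (57.9 and 57.4 TPM) to the loader Nipbl (16.1 and 15.3 TPM). Of 9 further histone methyltransferases all were detected, with the H3K9 enzymes Ehmt2 (73.9 and 78.3 TPM) and Ehmt1 (68.8 and 67.7 TPM) highest. Prdm9, which places recombination sites in meiotic cells, was lowest with 2.2 and 1.68 TPM, yet above the threshold.

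The labelled tissue was checked against markers. All 12 kidney markers were detected, with medians of 86.5 and 84.3 TPM. Markers of other cells were present too, with sums of 8788 and 8471 TPM for 6 erythroid genes, 123 and 129.5 for 6 macrophage genes and 94.7 and 113 for 6 adrenal genes. Skeletal muscle genes summed to 98.4 and 197 TPM and nerve genes to 46.8 and 29.2 TPM. Their part in the members' levels was not tested.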

How the data were processed

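Gene and transcript tables of 2 total RNA-seq libraries were used. Per the labels, RNA over 200 nt was isolated, 10 ng entered each library, and spike-in RNAs were added. Per the deposited notes, values refer to mm10 and annotation M4; aligner, quantifier and strandedness were not given in the sources used here. The deposited expected counts are estimated counts that divide shared reads among genes. The deposited TPM and FPKM values were scaled by the authors to length and library. The deposited lower and upper TPM bounds, handled as a signal, belong to the posterior mean TPM and excluded the TPM itself in 4 members in replicate 1 and 5 in replicate 2. The deposited percent is the share of a transcript in its gene's TPM.

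Names, types and coordinates are those of GENCODE M21 (GRCm38) for the same stable identifier, whose models can differ from M4. Mouse genes alone entered library sizes. Of the counts, 2.82% in replicate 1 and 2.08% in replicate 2 fell on entries that are not mouse genes, nearly all of them on 96 spike-ins. Counts were rounded and TMM factors taken from edgeR 4.0.16 under R 4.3.3, with a prior count of 2 and genes of at least 1 CPM, and DESeq2 1.42.0 size factors served as an alternative. Tables used Python 3.11.15, numpy 2.4.6 and pandas 2.3.3, and figures matplotlib 3.10.9. The ratio code was tested on simulated data.

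In 14 members counts were not whole, so reads were shared with other genes. Exons of 14 members overlap a gene on the opposite strand, by at most 7.61% of the member's exon bases except Hdac4 (22.4%, with Gm26720), and these values are uncertain.

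The members, gene lists and pairs were chosen with earlier results of these data known. All members are named, of each pathway list the 2 highest and the lowest by mean TPM and genes under 1 TPM in a library (1 is not reported here), and of transcripts the leaders that were not protein-coding, held under 50% or differed between libraries; the leaders of the other pair members are not named. Printing proteins of paralogs, also planned, was not done here.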

Additional observations from a re-analysis of the deposited data

How the results depend on the processing

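With 2 pools of 1 group, no difference between conditions can be tested, and the SD rests on 2 values. Detection held at 49 to 52 of 53 members under every alternative tried. In FPKM the median level was 16.6 for all members, 30.2 for deacetylases, 29.5 for DNA methylation genes, 27.2 for remodellers, 16.2 for Polycomb and 7.04 for Trithorax genes, since FPKM has another scale. On protein-coding transcripts the median was 19.7 TPM for all members, 28.2 for deacetylases, 27.8 for DNA methylation genes, 19.7 for remodellers and 23.1 for Polycomb genes. For all members, the median was 25.2 by posterior mean TPM, 27.1 with TPM rescaled to mouse genes and 27 over detected members, and the Polycomb median was 26.5 when rescaled. Leaving out a library put the group medians within 39.7 to 51.3 TPM for DNA methylation genes and 42.5 to 50.7 for deacetylases. The median protein-coding share of 89.2% of TPM was 86.7% by posterior mean TPM and 96.7% of counts. No member passed 2-fold between libraries under edgeR TMM, DESeq2 size factors, library size or spike-in scaling, and 1 (Dnmt3l) did without the filter on low counts. Under spike-in scaling Ring1 passed 1.5-fold, at a log2 ratio of -0.75. The number higher in replicate 1 was 37 with TMM, 35 with DESeq2, 40 with library size and 0 with spike-ins. Of the paralog ratios called beyond the spread, only Tet2 over Tet1 reversed, to 0.11 with counts over the longest protein-coding transcript. The differences of group means from protein-coding genes, in the order deacetylases, remodellers, DNA methylation, Polycomb and Trithorax genes, were 4.23, 4.11, 3.94, 3.45 and 2.65 with a pseudocount of 0.01 and 2.45, 2.29, 2.22, 1.67 and 0.89 with 1. Of the paralog ratios and the promoter value under all alternatives, 151 stayed within the spread between libraries, 73 moved past it and 1 reversed. The 151 include leaving out each library in turn for every pair. That returns the other library's ratio, which lies within the spread by construction and says nothing about stability. The alternative with the longest transcript, the scalings of the direction count and the share of counts were chosen after seeing the data. No paired analysis was possible because there is 1 group. Depth limits Dnmt3l and Ctcfl, with 5 to 19 counts.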
